A study of Mus musculus with 9 samples.

Results

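The 10 genes described here carry out iron storage (Fth1, Ftl1 and Ncoa4), iron transport (Tfrc, Slc40a1 and Slc11a2), iron sensing (Ireb2 and Aco1) and the binding of metal ions by metallothioneins (Mt1 and Mt2). They were chosen by symbol for these roles, with earlier results of these data known. All 10 are among the 24421 genes of the deposited table and among the 15583 genes that were tested. Poly(A) RNA was sequenced from proximal tubular epithelial cells of 9 mice, 3 in each of 3 groups. Every mouse carried the SLC34a1GCE allele, in which a tamoxifen-inducible Cre is expressed from the Slc34a1 locus, and the R26tdTomato reporter. Tamoxifen was injected 5 times at 3 mg per mouse, starting in 8-week-old animals, and living tdTomato-positive cells were sorted from enzymatically dissociated kidney cortex. The *db/m* mice were non-diabetic heterozygotes for the leptin receptor mutation Leprdb, the *db/db* mice were diabetic homozygotes given vehicle, and the *db/db*-dapa mice were diabetic homozygotes given dapagliflozin at 1.5 mg/kg per day in drinking water for 8 weeks. Dapagliflozin inhibits SGLT2, the sodium-glucose cotransporter of the early proximal tubule. All groups thus shared the reporter, the Cre allele, tamoxifen and the stress of dissociation and sorting, and *db/m* mice carried 1 mutated copy of the receptor gene. The labels give the strain as C57BL/6 and the tissue as kidney. Untreated diabetic mice were compared with *db/m* mice (the diabetes comparison), treated with untreated diabetic mice (the dapagliflozin comparison) and treated diabetic mice with *db/m* mice (the combined comparison), and fold changes are those of the group named first.

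Cells import transferrin-bound iron through the transferrin receptor, move it out of endosomes through the divalent metal transporter, store it inside ferritin, a shell built of heavy and light chains, and export it through ferroportin. The iron regulatory proteins adjust this traffic by binding a hairpin, the iron-responsive element, in messenger RNAs when iron is scarce, which blocks translation where the hairpin lies in the 5′ UTR and protects the message where it lies in the 3′ UTR. The proximal tubule takes up filtered transferrin and other iron-carrying proteins. Metallothioneins are small cysteine-rich proteins that bind zinc, copper and cadmium, and their genes respond to metals and to stress hormones. Since the hairpins act mainly on translation, most of this control cannot be read from messenger RNA levels of the ferritin genes.

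The hairpins are shown because the search below divides the 10 genes into messages with and without a match to its form of this element. The search covered the GENCODE M21 transcripts of GRCm38. It looked for a loop of CAGTG followed by A, C or T, closed by 5 base pairs. An unpaired C below these pairs and at least 4 of 5 pairs in the lower stem were also required. The search found an element in 4 of the 10 genes. The same search found one in 24 of 21877 protein-coding genes (0.11%). Capitals mark the first 5 bases of the loop, CAGTG. Fth1 has its element in the 5′ UTR at chr19:9982733-9982759 (plus strand), Ftl1 in the 5′ UTR at chr7:45459780-45459806 (minus strand) and Slc40a1 in the 5′ UTR at chr1:45925466-45925492 (minus strand). Tfrc has 4 elements in its 3′ UTR on the plus strand, at chr16:32631220-32631246, chr16:32631599-32631625, chr16:32631664-32631690 and chr16:32631711-32631737.
Fth1: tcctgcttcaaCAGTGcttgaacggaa
Ftl1: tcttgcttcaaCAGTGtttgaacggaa
Slc40a1: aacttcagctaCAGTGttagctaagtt
Tfrc, element 1: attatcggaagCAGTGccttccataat
Tfrc, element 2: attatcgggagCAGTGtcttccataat
Tfrc, element 3: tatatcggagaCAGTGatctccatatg
Tfrc, element 4: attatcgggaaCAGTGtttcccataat
The elements of Fth1 and Ftl1 were identical at 25 of 27 bases. No element of this exact form was found in the other 6 genes, which says only that these letters are not in the transcripts searched. Hairpins of other forms were not searched for, so these 6 genes, Slc11a2 among them, are not shown to lack one.

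The promoters of Mt1 and Mt2 are shown because the levels of these neighbouring genes varied together, as described below. Both genes lie on the plus strand of chromosome 8, where Mt2 spans 94172664 to 94173568 and Mt1 spans 94179082 to 94180327 in GENCODE M21. The 250 bases before the start of each gene in RefSeq (GRCm38.p6) are chr8:94178839-94179088 for Mt1 and chr8:94172368-94172617 for Mt2. These starts differ from those of GENCODE. The Mt1 stretch ends past the GENCODE start at 94179082, and the Mt2 stretch ends short of the GENCODE start at 94172664. Which start these cells use was not tested, and sequence beyond the windows was not searched, so further elements may lie there. Capitals mark TGCACNC or TGCGCNC on either strand, the core of the metal-responsive element bound by the zinc-sensing factor MTF1.
Mt1 promoter: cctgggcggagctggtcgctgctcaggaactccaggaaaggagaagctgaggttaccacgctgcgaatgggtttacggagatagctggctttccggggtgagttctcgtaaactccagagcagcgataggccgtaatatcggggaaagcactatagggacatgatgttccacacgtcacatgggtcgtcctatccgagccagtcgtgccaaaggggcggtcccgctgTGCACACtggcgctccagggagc
Mt2 promoter: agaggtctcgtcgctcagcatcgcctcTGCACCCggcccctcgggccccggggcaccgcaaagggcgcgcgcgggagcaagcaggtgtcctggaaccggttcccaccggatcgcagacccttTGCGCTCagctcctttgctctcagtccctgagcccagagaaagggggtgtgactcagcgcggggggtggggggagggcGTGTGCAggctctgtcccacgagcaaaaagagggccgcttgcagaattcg
In windows that add the 50 bases after the start, Mt1 held 3 matches and Mt2 held 4. Those at offsets 2 and 20 from the RefSeq start of Mt1, and at offset 4 of Mt2, lie outside the stretches shown. Of 32851 RefSeq promoter windows of the same length, 25.7% held at least 1 match and 1.97% held at least 3. A match is a stretch of letters and was not tested for binding.

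The libraries summed to between 2733349 and 9033123 estimated counts. The 14 markers of the proximal tubule were all found, with summed levels of 18804 to 19306 CPM (counts scaled to a common library size) in *db/m* mice, 20653 to 26500 CPM in *db/db* mice and 22641 to 28537 CPM in *db/db*-dapa mice, so both diabetic groups lay above all *db/m* mice. The single markers did not all follow the sum. In the diabetes comparison 10 lay above 0 and 4 below, with Keg1 at a log2 fold change of -1.14 (adjusted p = 0.0125, edgeR's quasi-likelihood test). Libraries differed in the balance of short and long messages, measured as the median deviation of transcripts under 1 kb from the mean of all mice, on the log2 scale, minus that of transcripts over 3 kb. It was 0.26, 0.020 and 0.52 in *db/m* mice, 0.17, 0.27 and -0.51 in *db/db* mice, and -0.028, -0.30 and -0.35 in *db/db*-dapa mice. The library of *db/db* replicate 3 stood apart from the others of its group and lay beside those of *db/db*-dapa replicates 2 and 3, the same 3 libraries that had the highest sums of proximal tubule markers, so log2 fold changes that it moved most are given without it as well.

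On the scale of CPM per kb of the principal transcript, the ferritin chains were by far the most abundant of the 10 messages. Mean levels over the 9 mice were 5435 CPM per kb for Fth1 and 4404 for Ftl1, followed by 204 for Mt1, 119 for Aco1, 113 for Mt2 and 57.0 for Ncoa4. Slc11a2, Tfrc, Ireb2 and Slc40a1 lay lowest, at 23.6, 20.7, 18.3 and 16.4 CPM per kb. The step from Ftl1 to Mt1 and the step from Ncoa4 to Slc11a2 held in 9 of 9 mice, whereas every other pair of neighbours in this order changed places in 2 to 4 mice. Together the 2 ferritin messages took 0.893% to 1.26% of all counts in *db/m* mice, 0.652% to 1.13% in *db/db* mice and 0.758% to 0.959% in *db/db*-dapa mice, ranges that overlap.

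**Figure D1:**
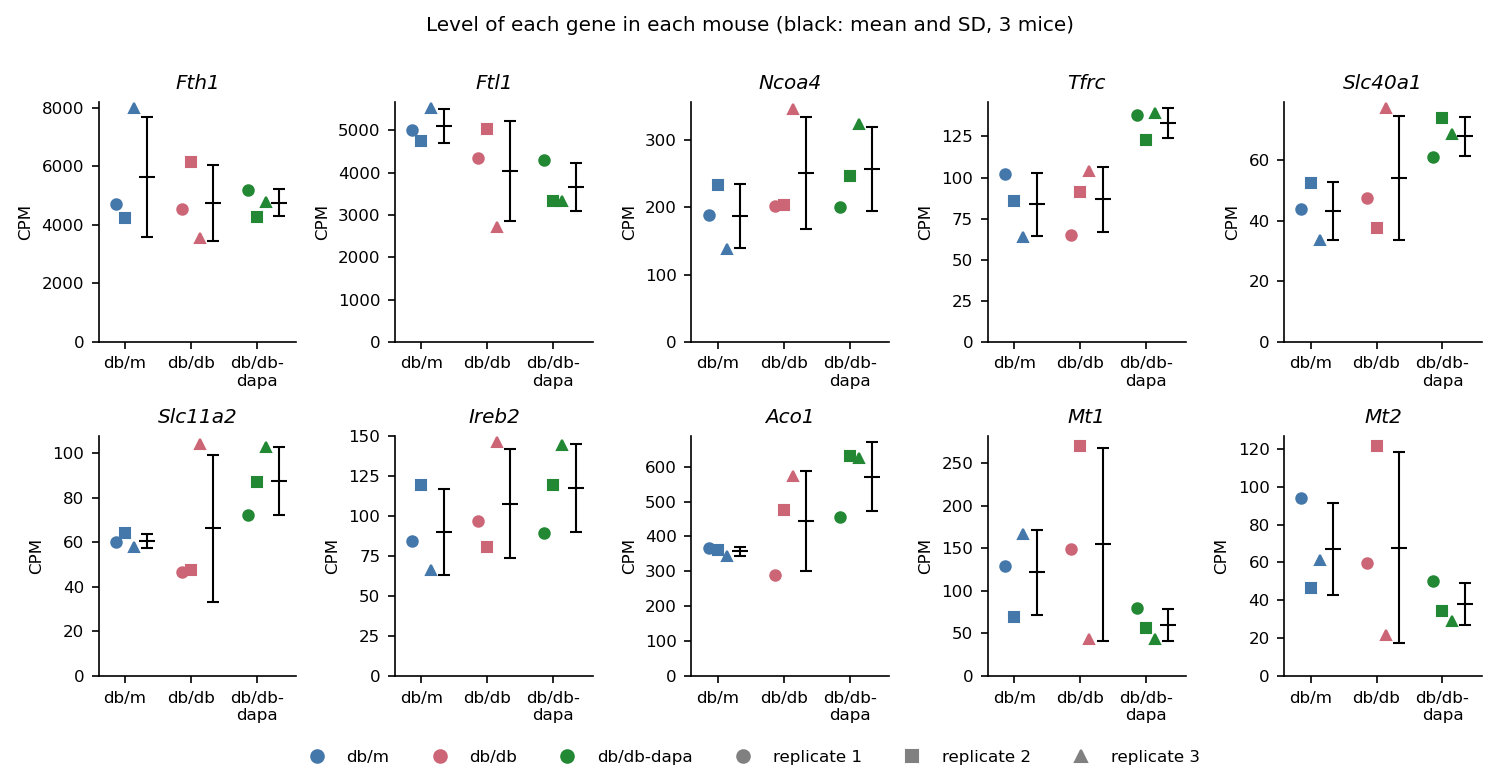
CPM of each of the 10 genes (vertical axes, from 0) in each of the 9 mice, 3 per group (coloured points, with shapes for replicate numbers), with the mean and SD of each group in black. The *db/db*-dapa mice lay between 123 and 139 CPM for Tfrc, above all mice of the other groups, and Mt1 in *db/db* mice spread from 43.2 to 271 CPM.

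Fth1, the ferritin heavy chain with ferroxidase activity, was at 4714, 4229 and 7989 CPM in the 3 *db/m* mice, 4550, 6140 and 3566 CPM in the *db/db* mice and 5194, 4272 and 4790 CPM in the *db/db*-dapa mice. The highest value was that of *db/m* replicate 3, and the groups overlapped in all 3 comparisons. Group means were 5644 ± 2045, 4752 ± 1299 and 4752 ± 462 CPM (SD, n = 3 mice each). They gave a log2 fold change of -0.25 (standard error 0.27) in the diabetes comparison, 0.00016 (0.27) in the dapagliflozin comparison and -0.25 (0.27) in the combined comparison, with adjusted p = 0.728, 1 and 0.633 (edgeR's quasi-likelihood test, Benjamini-Hochberg). The diabetes and dapagliflozin values without *db/db* replicate 3 were -0.084 and -0.16. Without *db/db* replicate 2 they were -0.48 and 0.23, and without *db/m* replicate 3 the diabetes value was 0.078. In bulk RNA of sorted cells, fewer cells of a type and less of a message per cell cannot be told apart, here and for the other genes.

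Ftl1, the ferritin light chain that promotes iron core formation, was at 5016, 4739 and 5541 CPM in *db/m* mice, 4341, 5032 and 2727 CPM in *db/db* mice and 4308, 3319 and 3341 CPM in *db/db*-dapa mice. All 3 *db/db*-dapa values lay below all 3 *db/m* values, while *db/db* mice overlapped with both groups. On the log2 scale, the difference was -0.48 (95% interval -0.99 to 0.035) in the combined comparison, -0.34 (-0.85 to 0.18) in the diabetes comparison and -0.14 (-0.66 to 0.37) in the dapagliflozin comparison. When *db/db* replicate 3 was left out, the diabetes and dapagliflozin values were -0.13 and -0.34. With replicate 2 of that group left out instead, they were -0.53 and 0.048. None passed the test with all 9 mice (adjusted p = 0.297, 0.564 and 0.918, edgeR's quasi-likelihood test, Benjamini-Hochberg). Counts of Ftl1 were fractional in 7 of 9 mice, so some of its reads appear to have been shared with another gene, and its level is uncertain to that extent. The count ratio of Fth1 to Ftl1 was 0.940, 0.893 and 1.44 in *db/m* mice, 1.05, 1.22 and 1.31 in *db/db* mice and 1.21, 1.29 and 1.43 in *db/db*-dapa mice. The ratio overlapped between all groups (exact two-sided permutation tests on log2 ratios, p = 0.6, 0.5 and 0.4 in the diabetes, dapagliflozin and combined comparisons).

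Ncoa4, the receptor that delivers ferritin to the lysosome, was at 189, 234 and 139 CPM in *db/m* mice, 202, 204 and 347 CPM in *db/db* mice and 201, 248 and 324 CPM in *db/db*-dapa mice. The highest value was that of *db/db* replicate 3, and the groups overlapped. The log2 fold change in the diabetes comparison was 0.43 (standard error 0.27), which had the lowest adjusted p of the 10 genes in that comparison (0.534, edgeR's quasi-likelihood test, Benjamini-Hochberg). Without *db/db* replicate 3 it was 0.11, and the value in the dapagliflozin comparison went from 0.034 to 0.36.

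Tfrc, the transferrin receptor, was at 102, 85.8 and 63.7 CPM in *db/m* mice, 65.3, 91.2 and 104 CPM in *db/db* mice and 138, 123 and 139 CPM in *db/db*-dapa mice. All 3 treated mice lay above all 6 others, and the *db/m* and *db/db* mice covered nearly the same range. Group means were 83.8 ± 19.2, 86.8 ± 19.7 and 133 ± 9.15 CPM (SD, n = 3 each). The log2 fold change in the dapagliflozin comparison was 0.61 (95% interval 0.14 to 1.09), a 1.53-fold difference. Its unadjusted p was 0.0160, but after adjustment over 15583 genes it was 0.854 (edgeR's quasi-likelihood test, Benjamini-Hochberg adjusted p), and the exact permutation test gave p = 0.1, the smallest that 3 against 3 mice allow. Leaving out single mice moved the value between 0.45, without *db/db* replicate 1, and 0.77, without *db/db* replicate 3. Against *db/m* mice the log2 fold change was 0.67 (95% interval 0.19 to 1.14, adjusted p = 0.186 in edgeR's quasi-likelihood test). In the diabetes comparison it was 0.054 (standard error 0.22), and -0.10 without *db/db* replicate 3.

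Slc40a1, which encodes ferroportin, was at 43.8, 52.3 and 33.5 CPM in *db/m* mice, 47.6, 37.6 and 77.2 CPM in *db/db* mice and 61.2, 74.0 and 68.7 CPM in *db/db*-dapa mice. The treated mice lay above all *db/m* mice, whereas *db/db* replicate 3 lay above the treated mice and the other two *db/db* mice below them. The log2 fold change of *db/db*-dapa mice was 0.65 (95% interval 0.085 to 1.22) against *db/m* mice and 0.32 (-0.24 to 0.88) against *db/db* mice, with adjusted p = 0.237 and 0.854 (edgeR's quasi-likelihood test, Benjamini-Hochberg). Without *db/db* replicate 3, the value against *db/db* mice was 0.70 (adjusted p = 0.131 in edgeR's quasi-likelihood test), and without *db/db* replicate 2 it was 0.11. The diabetes comparison gave 0.33 with all mice and -0.040 without *db/db* replicate 3.

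Slc11a2, which encodes the divalent metal transporter DMT1, was at 60.0, 64.0 and 57.7 CPM in *db/m* mice, 46.9, 47.6 and 104 CPM in *db/db* mice and 72.4, 87.3 and 103 CPM in *db/db*-dapa mice. Again the treated mice lay above all *db/m* mice, and *db/db* replicate 3 stood far above the other *db/db* mice. Its log2 fold change was 0.53 (standard error 0.28, adjusted p = 0.329) in the combined comparison and 0.39 (standard error 0.28, adjusted p = 0.854) in the dapagliflozin comparison (edgeR's quasi-likelihood test, Benjamini-Hochberg). Without *db/db* replicate 3 the latter was 0.90, with an adjusted p of 0.0758 in the same edgeR test, under the fold threshold of 1 on the log2 scale, and without *db/db* replicate 2 it was 0.20. Its diabetes value was 0.14 with all mice and -0.37 without *db/db* replicate 3. Slc11a2 overlaps Gm5475 on the opposite strand, and whether the counting used strand is not given in the sources used here.

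Aco1, the cytosolic aconitase that serves as iron regulatory protein 1 when it lacks its iron-sulfur cluster, was at 367, 361 and 344 CPM in *db/m* mice, 289, 475 and 572 CPM in *db/db* mice and 457, 631 and 625 CPM in *db/db*-dapa mice. The *db/m* mice were close together, at 357 ± 12.2 CPM (SD, n = 3), and all treated mice lay above them. The *db/db* mice lay on both sides, at 445 ± 144 CPM (SD, n = 3). The log2 fold change in the combined comparison was 0.68 (95% interval 0.15 to 1.20, adjusted p = 0.212), and that against *db/db* mice was 0.36 (-0.17 to 0.88, adjusted p = 0.854) in edgeR's quasi-likelihood test. The latter was 0.12 when *db/db* replicate 1 was left out and 0.59 when replicate 3 of that group was. Aco1 in the diabetes comparison was at 0.32 with all mice and 0.091 without *db/db* replicate 3. Ireb2, iron regulatory protein 2, was at 84.6, 120 and 66.2 CPM in *db/m* mice, 96.9, 80.8 and 146 CPM in *db/db* mice and 89.3, 120 and 145 CPM in *db/db*-dapa mice. Its groups overlapped in every comparison, with log2 fold changes of 0.26, 0.12 and 0.39 (standard error 0.28 each) in the diabetes, dapagliflozin and combined comparisons. The diabetes and dapagliflozin values were -0.035 and 0.43 without *db/db* replicate 3.

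The metallothioneins varied most among the 10 genes. Mt1 was at 129, 68.7 and 167 CPM in *db/m* mice, 150, 271 and 43.2 CPM in *db/db* mice and 79.8, 56.1 and 43.7 CPM in *db/db*-dapa mice. The highest and the lowest mouse both belonged to the *db/db* group, so that group spanned the other two. Over the 9 mice the highest level of Mt1 was 6.26 times the lowest, against 2.03 to 2.50 times for the 8 genes other than metallothioneins, and the SD of its log2 level was larger than that of 98% of the genes with a mean of at least 10 CPM. Mt2 was at 94.0, 46.4 and 61.3 CPM in *db/m* mice, 59.5, 122 and 21.9 CPM in *db/db* mice and 50.4, 34.3 and 29.0 CPM in *db/db*-dapa mice. It spread 5.57-fold, and its highest and lowest mice were the same as those of Mt1.

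The mean of Mt1 was 59.8 ± 18.4 CPM in *db/db*-dapa mice, 154 ± 114 CPM in *db/db* mice and 122 ± 49.6 CPM in *db/m* mice (SD, n = 3 each). In the dapagliflozin comparison its log2 fold change was -1.37 (95% interval -2.53 to -0.20). Its unadjusted p was 0.0253 and its adjusted p 0.854 (edgeR's quasi-likelihood test, Benjamini-Hochberg), and the exact permutation test gave p = 0.4. Leaving out *db/db* replicate 3 gave -1.80 (adjusted p = 0.0758 in edgeR's test), which passed both thresholds, and leaving out *db/db* replicate 2 gave -0.67 (adjusted p = 1). Mt2 had -0.83 (95% interval -1.91 to 0.24) in that comparison, -1.26 without *db/db* replicate 3 and -0.069 without *db/db* replicate 2. The sign was the same throughout, but the size turned on which of these *db/db* mice was left in. Against *db/m* mice the log2 fold change of *db/db*-dapa mice was -1.02 (standard error 0.53) for Mt1 and -0.83 (0.49) for Mt2, with adjusted p = 0.316 and 0.367 (edgeR's quasi-likelihood test). In the diabetes comparison it was 0.34 (0.52) and 0.0024 (0.49), which became 0.79 and 0.43 when *db/db* replicate 3 was left out and -0.35 and -0.76 when replicate 2 was.

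Counts of Mt1 were higher than those of Mt2 in 9 of 9 mice. The count ratio was 1.38, 1.48 and 2.72 in *db/m* mice, 2.51, 2.22 and 1.98 in *db/db* mice and 1.58, 1.64 and 1.51 in *db/db*-dapa mice. The ratio was lower in all treated mice than in all untreated *db/db* mice, while *db/m* mice covered both ranges. On the log2 scale it was 0.66 ± 0.059 in treated diabetic mice, 1.16 ± 0.17 in untreated diabetic mice and 0.82 ± 0.54 in non-diabetic mice (SD, n = 3 each). The difference of -0.50 in the dapagliflozin comparison reached the smallest p that 3 against 3 mice allow (exact two-sided permutation test, p = 0.1). The difference was 0.33 in the diabetes comparison (exact permutation p = 0.4) and -0.17 in the combined comparison (exact permutation p = 1). These p-values were not adjusted for testing this ratio and that of Fth1 to Ftl1 in 3 comparisons each. How often the ratios of other gene pairs separate these groups was not examined. Mt2 is overlapped by Gm45774 on the opposite strand.

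**Figure D2:**
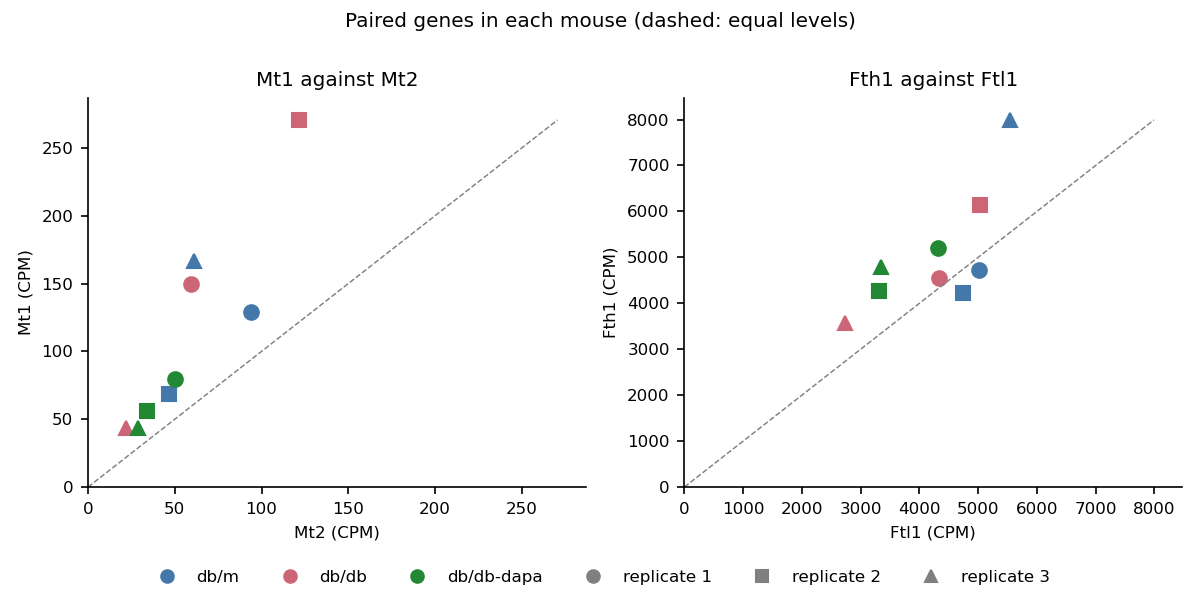
CPM of Mt1 against Mt2 (left) and of Fth1 against Ftl1 (right) in each of the 9 mice, with colours for groups, shapes for replicate numbers and a dashed line where both levels are equal. Mt1 lay above the line in 9 of 9 mice, and *db/db* replicate 2, at 271 CPM of Mt1 and 122 CPM of Mt2, was the highest for both.

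Taking the comparisons one by one, 0 of the 10 genes were called in any of them, where a call in edgeR's quasi-likelihood test was an absolute log2 fold change over 1 with an adjusted p under 0.1. DESeq2 and limma on log2(CPM + 1) also called 0 of them, and limma-voom with quality weights, which gives each library its own variance, called 0, 1 (Mt1) and 1 (Mt2) in the order of the comparisons below, against 1.68%, 2.88% and 10.4% of all genes in that fit. At an adjusted p under 0.1 with no fold threshold, limma-voom with quality weights had 3 of the 10 genes in the dapagliflozin comparison (5.77% of all genes) and 7 in the combined comparison (31.3%). In the diabetes comparison, 1.24% of all genes tested were called. None of the 10 genes had an unadjusted p under 0.05 (13.7% of all genes) and none had groups without overlap (16.4% of all genes). The median log2 fold change of the 10 genes was 0.20 against 0.020 for all genes tested, with 8 genes above 0 (51.6% of all genes) and 2 below (48.4%). The median turned to -0.037 when *db/db* replicate 3 was left out, with 4 genes above 0 and 6 below.

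In the dapagliflozin comparison, 0% of all genes tested were called by edgeR, while DESeq2 called 13 genes and limma-voom with quality weights 449. Tfrc, on the higher side, and Mt1, on the lower side, had an unadjusted p under 0.05, against 5.19% of all genes (1.91% higher and 3.27% lower). Tfrc alone had groups without overlap, against 10.2% of all genes (4.9% higher). The median was 0.079 for the 10 genes and -0.0094 for all genes, with 7 above 0 (48.7% of all genes) and 3 below (51.2%), or 5 and 5 under total-count or upper-quartile scaling. When *db/db* replicate 3 was left out it was 0.39, 6 of the 10 genes had an unadjusted p under 0.05, against 20.4% of all genes in that edgeR fit. Mt1 was then called, against 1.75% of all genes (272 genes), and 2 of the 10, Mt1 and Slc11a2, had an adjusted p under 0.1 (2.7% of all genes).

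In the combined comparison, 1.05% of all genes were called. Tfrc, Slc40a1 and Aco1 had an unadjusted p under 0.05 and were higher in treated mice, against 18.2% of all genes in either direction and 9.77% in this one. Groups did not overlap for 5 genes, Tfrc, Slc40a1, Slc11a2 and Aco1 above and Ftl1 below, against 28.1% of all genes (14.4% above and 13.7% below). The median was 0.42 against -0.022 for all genes, with 6 genes above 0 (48.5% of all genes) and 4 below (51.5%). When *db/db* replicate 3, which is in neither group but shares in the estimate of spread and the scaling, was left out, Mt1 was called (-1.01, adjusted p = 0.0976 in edgeR's test), against 4.27% of all genes in that fit. There 5 of the 10 genes had an adjusted p under 0.1 (10.6% of all genes) and 7 an unadjusted p under 0.05 (24.7%). This comparison shares the *db/db*-dapa mice with the second and the *db/m* mice with the first, so the 3 do not bear on each other independently.

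**Figure D3:**
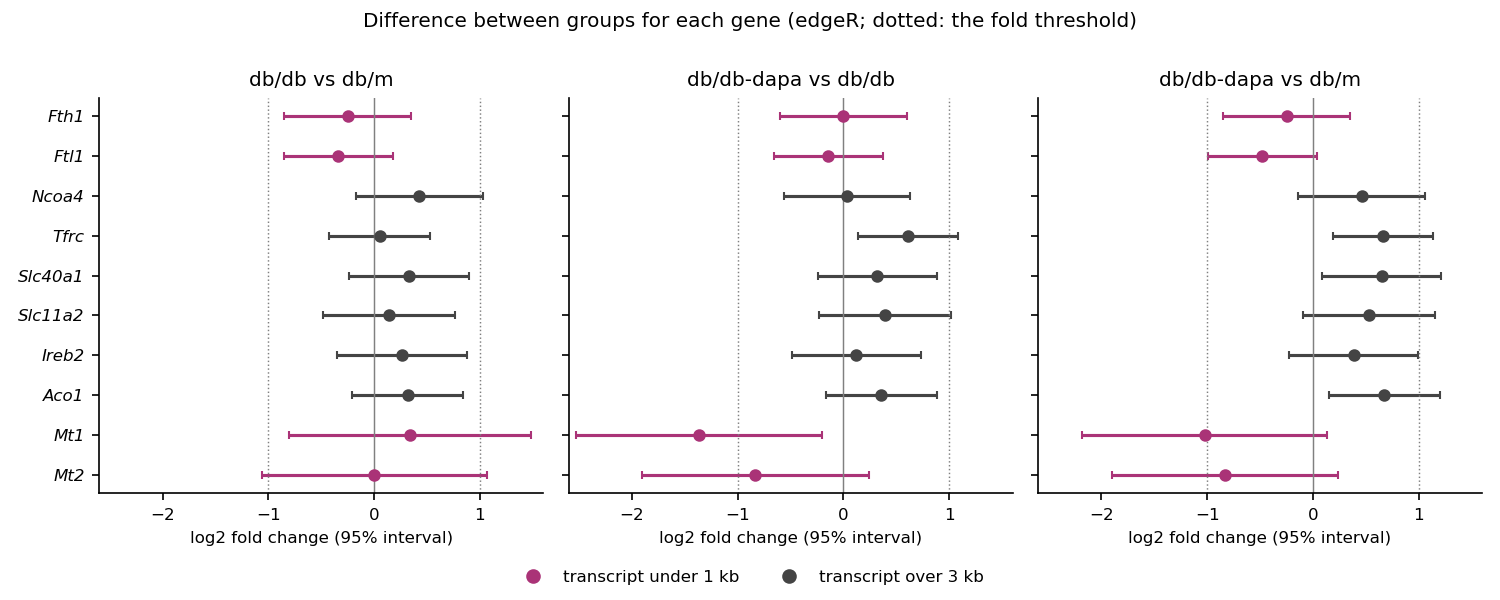
Log2 fold change of each gene (points) with its 95% interval (bars) from edgeR in the 3 comparisons, with dotted lines at the fold threshold of 1 and colour for transcripts under 1 kb and over 3 kb. The interval of Tfrc lay above 0 in the dapagliflozin comparison (0.14 to 1.09), and those of Mt1 and Mt2 were the widest.

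The 10 genes fall into 2 length classes that the choice of genes did not use. The ferritin and metallothionein transcripts are 511 to 968 bases long, and the other 6 principal transcripts are 3025 to 5770 bases long. With all 9 mice in edgeR's fit, the 6 long genes had log2 fold changes above 0 in each of the 3 comparisons, whereas 2, 1 and 0 of the 4 short genes did, although Ncoa4, at 0.034 in the dapagliflozin comparison, was at -0.033 under total-count and -0.027 under upper-quartile scaling. The signs of the long genes were less stable in the diabetes comparison. Tfrc was at -0.16 and Slc11a2 at -0.21 with quality weights, and Tfrc was at -0.10 with each mouse's trend on transcript length removed. Without *db/db* replicate 3, Tfrc (-0.10), Slc40a1 (-0.040), Slc11a2 (-0.37) and Ireb2 (-0.035) were below 0, which left 2 of the 6 above. Leaving out other single mice also turned Tfrc in that comparison and Ncoa4 and Ireb2 in the dapagliflozin comparison. The medians of the long genes were 0.29, 0.34 and 0.59 in the diabetes, dapagliflozin and combined comparisons, and those of the short genes were -0.12, -0.49 and -0.66. Among all genes tested, the 7093 with long transcripts had medians of 0.17, 0.05 and 0.20, and the 1384 with short transcripts had -0.21, -0.24 and -0.46. The medians of the 10 genes and of all genes had the same signs in each length class.

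The same order of mice was seen gene by gene. The 3 mice with the lowest balance of short over long messages, *db/db* replicate 3 and *db/db*-dapa replicates 3 and 2, were the 3 lowest mice for Ftl1, Mt1 and Mt2. They were the 3 highest for Ncoa4, Slc40a1, Slc11a2, Ireb2 and Aco1, which makes 8 of 10 genes, although for Ireb2 *db/db-dapa* replicate 2 and *db/m* replicate 2 were both at 120 CPM. They were neither for Fth1 and Tfrc. Of 9135 genes with a mean of at least 10 CPM, 34.5% had these mice as their 3 lowest or 3 highest, a description chosen after the values were seen. With each mouse's trend on transcript length removed, also chosen after the data were seen, the log2 fold change in the dapagliflozin comparison was 0.56 for Tfrc (unadjusted p = 0.0115, adjusted p = 0.754, edgeR's quasi-likelihood test), -1.001 for Mt1, -0.48 for Mt2 and 0.038 for Ftl1. Against *db/m* mice it was 0.46 for Tfrc, 0.58 for Slc40a1, 0.56 for Aco1, -0.15 for Ftl1, -0.54 for Mt1 and -0.39 for Mt2. The part of RNA quality, library preparation and group in the balance was not tested.

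**Figure D4:**
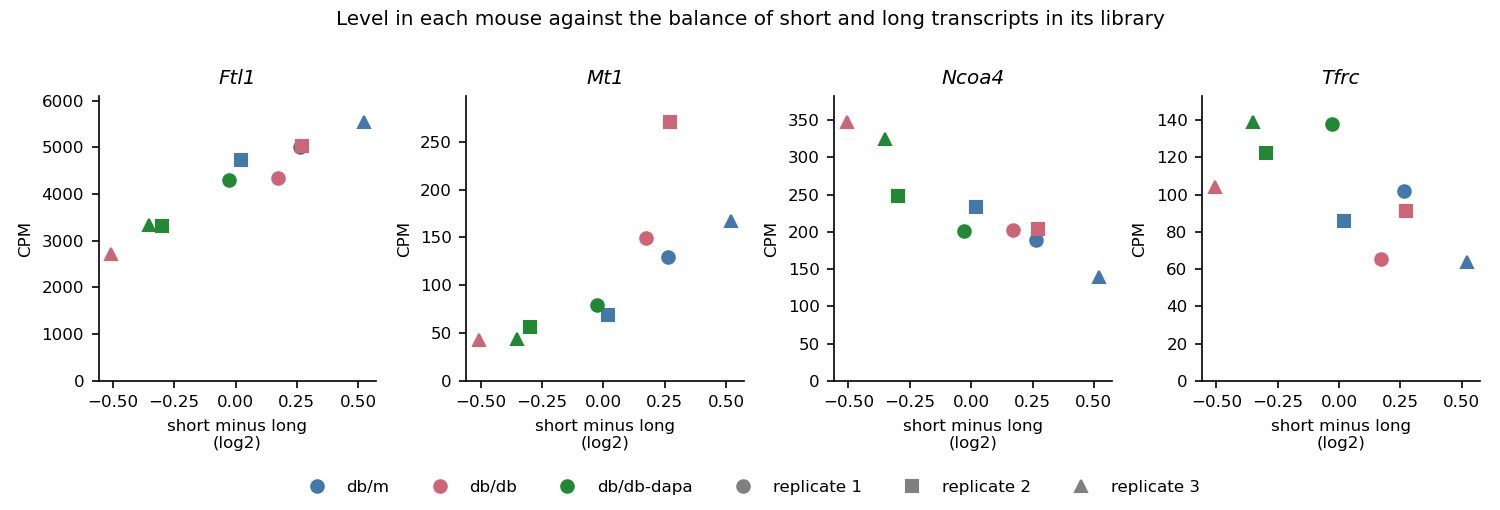
CPM of Ftl1, Mt1, Ncoa4 and Tfrc (vertical axes, from 0) against the balance of short and long messages in the library (horizontal axis, log2) for the 9 mice. Ftl1 and Mt1 were lower and Ncoa4 higher in the 3 mice with the lowest balance (-0.51, -0.35 and -0.30). For Tfrc these mice were at 104, 139 and 123 CPM, and *db/db*-dapa replicate 1, with a balance of -0.028, was at 138 CPM. The mouse with the highest balance (0.52), *db/m* replicate 3, was the lowest for Tfrc, at 63.7 CPM.

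Of the markers of other cells, 0 were called in any comparison by edgeR, and their summed levels are given for each group. The 7 red blood cell markers summed to 151 to 434 CPM in *db/m* mice, 111 to 1467 CPM in *db/db* mice and 35.4 to 308 CPM in treated mice. The highest library, *db/db* replicate 2, was also the highest mouse for Mt1 and Mt2. The ranges of the groups overlapped. The 12 macrophage markers summed to 60.4 to 122, 52.9 to 155 and 35.6 to 93.8 CPM in the same groups, and the 12 markers of the thick limb, distal tubule and collecting duct to 1237 to 3021, 1034 to 2072 and 887 to 1098 CPM. The last range lies below that of *db/m* mice, and 7 of these 12 genes had an unadjusted p under 0.05 in the combined comparison in edgeR's test, against 18.2% of all genes. The 8 endothelial markers summed to 58.9 to 144, 75.7 to 186 and 46.7 to 224 CPM, and the 9 podocyte and fibroblast markers to 37.95 to 68.6, 39.3 to 85.3 and 18.7 to 264 CPM. The 14 immediate-early and heat-shock genes summed to 5822 to 7519, 4832 to 9148 and 5891 to 10302 CPM. In the diabetes comparison 7 of them lay above 0 and 7 below. Dnajb1 was called there, at a log2 fold change of -1.20 (adjusted p = 0.0657, edgeR's quasi-likelihood test), against 1.24% of all genes. The part of other cells and of the stress genes in the levels of the 10 genes was not tested.

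Other genes of iron and metal handling were read from 4 lists. Of 26 genes of iron uptake, export and sensing, 23 were tested and 0 were called in any comparison (6, 1 and 6 at an unadjusted p under 0.05 by edgeR, in the order below). Of all genes tested, 13.7%, 5.19% and 18.2% had such a p in the same order. Their median log2 fold changes were 0.16, 0.099 and 0.12 in the diabetes, dapagliflozin and combined comparisons, against 0.020, -0.0094 and -0.022 for all genes. The highest in the diabetes comparison were Trf, which encodes transferrin (1.47), and Hfe, a partner of the transferrin receptor (0.80), and the lowest were Steap3, an endosomal ferrireductase (-2.74), and Cp, the ferroxidase ceruloplasmin (-0.93). Steap3 was low in all groups, with means of 3.19 CPM in *db/m* mice, 0.486 CPM in untreated and 1.87 CPM in treated diabetic mice. In the dapagliflozin comparison the highest were Steap3 (1.98) and the ferrireductase gene Cybrd1 (0.57), and the lowest were Trf (-0.61) and Heph, the ferroxidase hephaestin (-0.35). Cybrd1 was also low, at 1.65 ± 0.340 CPM in untreated and 2.42 ± 1.76 CPM in treated diabetic mice (SD, n = 3 each). In the combined comparison the highest were Cubn (1.04) and Lrp2 (0.94), the receptors that take up filtered proteins, and the lowest were Cp (-0.94) and Steap3 (-0.76). Lrp2 and Cubn are also among the 14 proximal tubule markers.

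Of 21 genes of heme synthesis, transport and breakdown, 19 were matched and tested, and 0 were called (5, 2 and 1 at an unadjusted p under 0.05 in edgeR's test, against 13.7%, 5.19% and 18.2% of all genes). One, Alas1, which encodes the rate-limiting enzyme of heme synthesis outside red cells, had an adjusted p under 0.1 and missed the fold threshold. Its mean was 504 ± 165 CPM in *db/m* mice, 259 ± 5.28 CPM in untreated and 256 ± 9.01 CPM in treated diabetic mice (SD, n = 3 each). Both diabetic groups lay below all *db/m* mice, with log2 fold changes of -0.96 (standard error 0.23, adjusted p = 0.0891) and -0.98 (0.22, adjusted p = 0.0928) in edgeR's quasi-likelihood test, where 1.67% and 1.31% of all genes had an adjusted p under 0.1. Between the diabetic groups it was -0.019. The erythroid enzyme gene Alas2 (1.01) and the heme-binding protein gene Hebp1 (0.57) were highest and Alas1 and the heme and folate transporter gene Slc46a1 (-0.47) lowest in the diabetes comparison. Alas2 is also among the 7 red blood cell markers. Its mean was 2.55 ± 0.919 CPM in *db/m* mice, 5.02 ± 6.59 CPM in untreated and 1.83 ± 2.36 CPM in treated diabetic mice (SD, n = 3 each). Hmox1, which encodes the heme-degrading enzyme heme oxygenase 1, was highest in both comparisons of treated mice, at 0.73 (standard error 0.38) against *db/db* and 0.81 (0.38) against *db/m* mice, followed by the transporter gene Abcg2 (0.48) and the heme synthesis gene Cpox (0.62). The lowest were Alas2 (-1.50) and Ppox (-0.49) against *db/db* mice, and Alas1 and the biliverdin reductase gene Blvrb (-0.54) against *db/m* mice. The list medians were -0.19, 0.13 and -0.075.

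Of 22 genes of iron-sulfur cluster assembly, 22 were tested and 0 were called (0, 1 and 3 at an unadjusted p under 0.05 in edgeR's test, against 13.7%, 5.19% and 18.2% of all genes). In the diabetes comparison 18 lay below 0 (48.4% of all genes) and 4 above (51.6%), with a median of -0.17. Nubp2 (-0.35) and Fdx1l (-0.35) were lowest, and Mms19 was at 0.14. In the dapagliflozin comparison 11 lay on each side, between Mms19 (-0.36) and Fdx1l (-0.31) at the low end and Iba57 (0.47) and Nubp2 (0.41) at the high end. In the combined comparison the median was -0.12, with Fdx1l (-0.66) and Bola3 (-0.44) lowest and Iba57 at 0.42.

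Of 30 genes of zinc and copper handling, 27 were tested and 0 were called (4, 0 and 5 at an unadjusted p under 0.05 in edgeR's test, against 13.7%, 5.19% and 18.2% of all genes). In the diabetes comparison the median was -0.11. The copper-zinc superoxide dismutase gene Sod1 (-0.78) and the zinc exporter gene Slc30a2 (-0.63) were lowest, and the copper pump gene Atp7a (0.82) and the zinc importer gene Slc39a10 (0.32) highest. Of the 27, 22 lay above 0 (48.7% of all genes) and 5 below (51.2%) in the dapagliflozin comparison, with a median of 0.20. Mt1 and Mt2 had the opposite sign, as did the median of all genes with transcripts under 1 kb, their length class (-0.24). Atp7b (0.70) and Slc39a10 (0.62) were highest, and the copper chaperone genes Atox1 (-0.50) and Cox17 (-0.46) lowest. In the combined comparison Slc39a10 (0.93) and Atp7a (0.84) were highest and Cox17 (-0.72) and Sod1 (-0.58) lowest, with a median of 0.078.

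**Figure D5:**
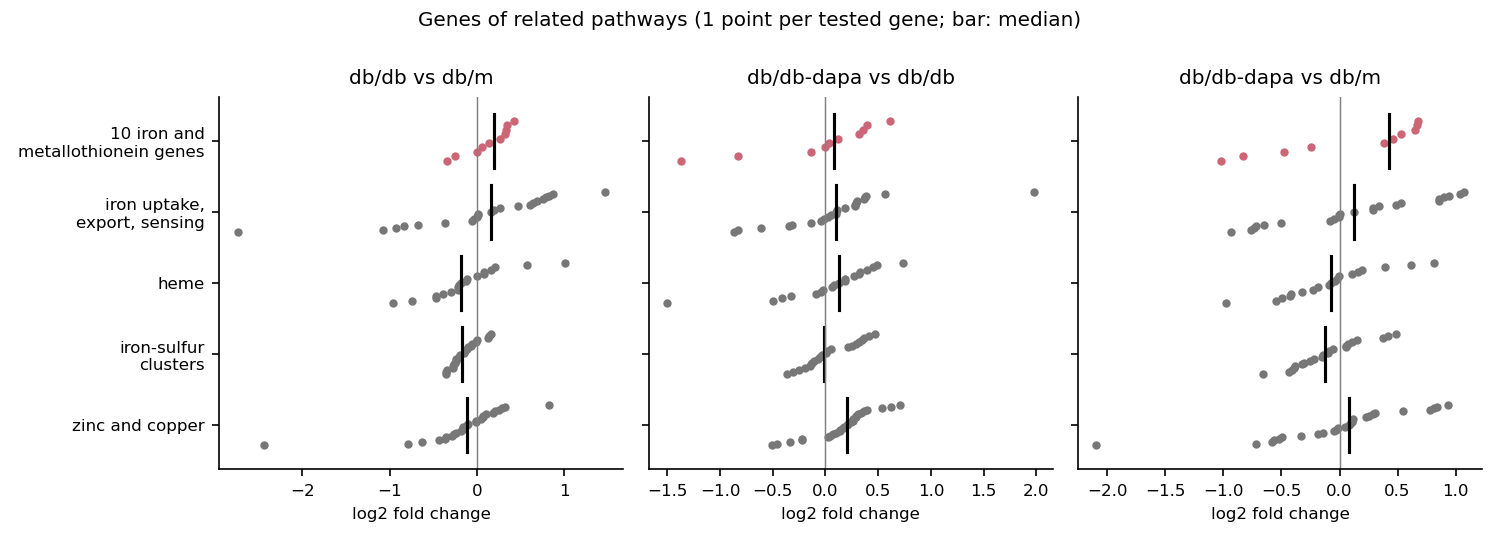
Log2 fold change of each tested gene (points) of the 10 iron and metallothionein genes and of 4 related lists in the 3 comparisons, with the median of each list as a bar and a separate horizontal scale for each comparison. The medians of the 10 genes were 0.20, 0.079 and 0.42, and those of the iron uptake list 0.16, 0.099 and 0.12.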

How the data were processed

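Proximal tubular epithelial cells sorted from 9 mice were profiled by RNA sequencing, with groups and replicate numbers taken from the sample titles. Per the labels, stranded poly(A) libraries were read in single-end mode and mapped to mm10 with TopHat2 2.0.13, Bowtie2 2.2.3 and SAMtools 0.1.19, and the authors named Cufflinks 2.2.1 for FPKM. The deposited values are estimated counts rather than FPKM, since 85.9% of the values above 0 are whole and the sums differ between mice, so the planned filter at 0.3 FPKM was applied at 0.3 CPM in at least 2 of 9 mice. How these counts were made, and whether strand was used, is not given in the sources used here. There were 0 unused sample columns.

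The counts were rounded and tested for all 15583 genes that passed, over the 9 mice together, by edgeR 4.0.16 in R 4.3.3, using its quasi-likelihood test and TMM scaling. The Benjamini-Hochberg adjustment ran over all of them, and genes were called at an adjusted p under 0.1 with an absolute log2 fold change over 1. Intervals are 95% intervals of that model. Ratios of 2 genes were compared over mice by exact two-sided permutation, where the smallest p is 0.1. A count of 3 corresponded to 0.339 to 1.02 CPM, a floor that covers counting error only. Alternatives were DESeq2 1.42.0, limma 3.58.1 on log2(CPM + 1) and log2(CPM + 0.1), limma-voom with quality weights, other scalings and filters, the 2 groups compared alone, a replicate block and leaving out each mouse. Offsets by transcript length were added after seeing the data. In simulated counts in the dapagliflozin comparison, with 15260 genes tested, edgeR recovered 96% of 200 genes changed 4-fold and 35.5% of those changed 2-fold. The changed genes were drawn above a minimum mean level. Their counts varied independently between genes, without the shared shift of short and long messages seen in the real libraries. Neither share therefore measures detection in these data. A change of 2-fold lies at the fold threshold, which by itself keeps many such genes from being called.

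Replicates were separate mice. The 10 genes and the lists were chosen with earlier results of these data known. The genes named from each pathway list were the 2 highest and 2 lowest log2 fold changes per comparison among genes with a mean of at least 1 CPM, apart from a gene that is not reported here. Positions and lengths are those of GENCODE M21 (GRCm38), where 23350 symbols matched directly, 677 as older symbols and 392 not at all. Promoters are from RefSeq, which had an entry for 8 of the 10 genes.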

Additional observations from a re-analysis of the deposited data

How the results depend on the processing

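Of the 10 genes, 0 were called in any comparison, and this held under DESeq2, other scalings and filters, limma, the replicate block and length offsets. With limma-voom and quality weights 1 was called in the dapagliflozin comparison (Mt1) and 1 against *db/m* mice (Mt2), and with those 2 groups alone 1 (Mt1), against 4.15% of all genes in that fit. Leaving out 1 mouse gave 0 to 0 calls in the diabetes comparison and 0 to 1 in each other comparison, the 1 being Mt1 without *db/db* replicate 3. The median over the 10 genes then ranged from -0.037 (without *db/db* replicate 3) to 0.33, from -0.014 to 0.39 (without *db/db* replicate 3), and from 0.24 to 0.61 in the 3 comparisons. In the dapagliflozin comparison the median was 0.30 with quality weights, and against *db/m* mice 0.23 with length offsets. The log2 Mt1:Mt2 ratio in the combined comparison ranged from -0.35 to 0.14, above 0 only without *db/m* replicate 3. The causes were not tested.

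Small fold changes turned sign. In the diabetes comparison, Mt2 was at -0.24 and -0.25 with limma (pseudocounts 1 and 0.1) and -0.16 with the replicate block, Tfrc at -0.10 with length offsets, and with quality weights Fth1 was at 0.041, Tfrc at -0.16 and Slc11a2 at -0.21. In the dapagliflozin comparison, Fth1 was at -0.0035 with DESeq2, -0.059 and -0.073 with total-count and upper-quartile scaling, -0.17 with quality weights, -0.0083 with the replicate block and -0.0012 with 2 groups alone, Ncoa4 at -0.033 and -0.027 with these scalings, and Ftl1 at 0.038 with length offsets. Against *db/m* mice Fth1 was at 0.14 with length offsets. Leaving out 1 mouse turned the sign in the diabetes comparison of Fth1 (-0.48 to 0.078), Tfrc (-0.11 to 0.22), Slc40a1 (-0.040 to 0.54), Slc11a2 (-0.37 to 0.33), Ireb2 (-0.035 to 0.52), Mt1 (-0.35 to 0.79) and Mt2 (-0.76 to 0.43). It did so in the dapagliflozin comparison for Fth1 (-0.16 to 0.23), Ftl1 (-0.34 to 0.048), Ncoa4 (-0.15 to 0.36) and Ireb2 (-0.050 to 0.43), and against *db/m* mice for Fth1 (-0.42 to 0.083).

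Over all genes, edgeR called 194, 0 and 164 in the 3 comparisons, DESeq2 363, 13 and 507, quality weights 262, 449 and 1619, and the 2 groups alone 114, 0 and 626. Leaving out 1 mouse gave 84 to 230, 0 to 272 and 14 to 662. Without *db/db* replicate 3 the counts were 230, 272 and 662, without *db/db-dapa* replicate 2 they were 139, 1 and 14, and with no filter 235, 0 and 275. Same-numbered mice deviated together with correlations of -0.32 to 0.56, and 4 of 9 mice correlated best with their own number, so the numbers were not taken to pair the mice. With the replicate block 185, 0 and 167 genes were called, 0 of the 10 genes among them in each. Changes of 2-fold were often missed in simulation. They lie at the fold threshold, so many estimates fall under it whatever the number of mice, and the share recovered does not measure what 3 mice per group can detect.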

Other observations

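For each of the 10 genes, the other gene whose level over the 9 mice was most like it was sought among 9125 genes with a mean of at least 10 CPM, by Pearson's r of log2(CPM + 1), as a description. The genes found were Ypel5 for Fth1 (r = 0.991), Btf3 for Ftl1 (0.989), Tgfbr1, the type I receptor of TGF-beta, for Ncoa4 (0.995), Fut8, a fucosyltransferase gene, for Tfrc (0.984), Fem1c for Slc40a1 (0.990), Slc3a1, part of the cystine transporter of the proximal tubule, for Slc11a2 (0.993), Rbl2 for Ireb2 (0.984), Aldh2, the mitochondrial aldehyde dehydrogenase, for Aco1 (0.981), Cdk11b for Mt1 (0.981) and Med4 for Mt2 (0.976). The 6 genes found for the long transcripts had principal transcripts of 2271 to 5756 bases, and those found for the 4 short ones had 3120 (Ypel5), 1091 (Btf3), 2595 (Cdk11b) and 1328 bases (Med4), all outside the class under 1 kb. Mt1 and Mt2 correlated with each other at r = 0.926, and Ncoa4 and Ireb2 at 0.961. All these values share the same 9 libraries, whose balance of short and long messages differed, and the highest of 9125 correlations over 9 points is high in any such search.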
